A study of Rattus norvegicus with 2 samples.

Results

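Assembled loci are transcribed regions that the authors built from sequencing reads. Of the 6139 listed ones, 227 had an FPKM of at least 1 in WT urine and below 1 in UUO urine. The name of a reference gene or transcript was also carried by 31 of the 227. FPKM counts sequenced fragments for each kilobase of a transcript and corrects for the size of the library. These 227 WT-only loci made up 3.7% of the assembled loci and were chosen by the FPKM values of both libraries, so their levels are given as a description. The opposite pattern, at least 1 in UUO and below 1 in WT urine, was shown by 5344 assembled loci (87.1%). A further 555 reached 1 in both libraries and 13 in neither.

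The study compared urine RNA of Sprague Dawley rats whose right ureter had been tied with that of rats that had the same operation without the tie. The rats are labelled with an age of post natal day 56 (8 weeks), and samples were taken 2 weeks after the operation. UUO, unilateral ureteral obstruction, is a surgical model of kidney scarring, and the library labelled WT came from the sham-operated rats. Urine was drawn from the ureter by catheter, there was 1 library per group, and the number of rats behind each is not given in the sources used here. The columns of the table were read as UUO and WT from abbreviated names, the series title and headings of the study's lists, on which all directions below depend. No difference between the libraries has a replicate check.

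An assembled locus without a reference name can be an intergenic long noncoding RNA, an unannotated exon or an extended end of a neighbouring gene, or a short stretch of a longer transcript. Urine RNA comes from cells shed by the tubules, the urothelium and, in males, the accessory glands, from blood cells, and from vesicles and free RNA. For a long noncoding RNA the protein-coding gene beside it is often examined first, because some such RNAs act on their neighbours.

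In these libraries 7 of 8 listed urothelial genes reached an FPKM of 1 in WT urine and 8 in UUO urine, and among 15 tubule genes the numbers were 15 and 13. The FPKM of the urothelial gene Upk2 was 82.4 in WT against 169 in UUO urine, and that of the tubule gene Umod was 30.1 against 26.3. Summed over all listed genes, the urothelial values came to 1731 (WT) against 1789 (UUO), and the tubule values to 383 against 360. The difference in Upk2 was thus not seen in the urothelial sum. Blood genes summed to 970 in WT and 57186 in UUO urine, with 3 and 5 of 5 above 1. Of 9 leukocyte genes 2 reached 1 in WT, where the defining marker Ptprc was listed at 0, and 7 in UUO urine. Of the listed male accessory gland genes 3 of 9 reached 1 in WT and 1 of 9 in UUO urine, and the summed FPKM was 10323 against 2.02. The ducts of these glands join the urinary tract below the ureter from which the urine was drawn, and the source of these values was not tested. Podocyte genes were detected for 3 of 5 in WT and 4 of 5 in UUO urine, injury genes for 2 and 6 of 6, and fibrosis genes for 4 and 6 of 6. Fewer cells of a type and less RNA per cell cannot be told apart in such samples, and the part of these shifts in the WT-only loci was not tested.

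The sequences of the loci themselves were not analysed here. For 5 of the 227 loci the nearest listed gene with a number-only ID was a microRNA gene, and the mature microRNAs of these genes are shown because they are the only neighbours whose product is itself a short RNA. Sequences are from RefSeq (GRCr8), 5′ to 3′, with the seed (bases 2 to 8) in capitals.
rno-miR-183-5p: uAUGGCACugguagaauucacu
rno-miR-183-3p: uGAAUUACcgaagggccauaa
rno-miR-328b-3p: cUGGCCCUcucugcccua
rno-miR-206-3p: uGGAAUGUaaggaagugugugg
rno-let-7c-5p: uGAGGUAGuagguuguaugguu
rno-let-7c-2-3p: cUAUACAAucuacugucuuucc

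None of these 6 mature sequences share a seed. The miR-183 gene Mir183, known from sensory epithelia, was nearest to 2 loci that lay 118 bp apart on chromosome 4, XLOC_024610 (chr4:57230255-57230473) and XLOC_024611 (chr4:57230591-57230837). Their WT FPKM was 138 and 71.3, and both were listed at 0 in UUO urine. They lay 4776 and 5112 bp from Mir183, which tied with another number-only gene at that distance. XLOC_011243 (WT FPKM 66.2) lay 7229 bp from Mir328b, XLOC_031464 (85.9) 29880 bp from Mirlet7c2 and XLOC_035847 (95.6) 77377 bp from Mir206, the muscle microRNA. Mir206 was likewise tied with another number-only gene. All 4 microRNA gene IDs were listed at 0 in both libraries. The listed region of Mirlet7c2, which held 3 other features, had a summed FPKM of 16.3 (WT) and 18.3 (UUO), and that of Mir206 had 0 and 0.739. At Mir183 and Mir328b the region was at 0 in both. The mature microRNAs were not measured.

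In WT urine the FPKM of the 227 loci ran from 2.76 to 1260, with a median of 95.7 and quartiles of 58.6 and 138. Of these, 170 had an FPKM of 50 to 200, 19 were above 200 and 10 were below 10. In UUO urine 219 (96.5%) were listed at 0, and no fold is given for them. The other 8 had UUO values above 0, and all 8 shared their listed locus with other features. Their highest UUO values were 0.961 for XLOC_007694, 0.959 for XLOC_032203, 0.684 for XLOC_033458, 0.541 for XLOC_033377 and 0.362 for XLOC_011791. The remaining values were 0.0344 for XLOC_030953, 0.000347 for XLOC_017477 and 0.000188 for XLOC_006103. The same pair of limits selected 3.49% of the number-only gene IDs and 3.24% of all 113011 features.

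The limits cut through few loci. For the 183 WT-only loci of up to 1200 bp without an overlapping feature, the steps described below forced this. There 1 fragment was worth at least 1.05 FPKM in WT and 1.02 in UUO urine, so no value between 0 and 1 could occur. Just inside the WT limit stood XLOC_011791 with a WT FPKM of 2.76, XLOC_007694 with 3.48, XLOC_014982 with 5.71, XLOC_030953 with 5.95 and XLOC_022564 with 6.21. Just outside the UUO limit stood XLOC_014800, with 6.85 in WT and 1.24 in UUO urine, and XLOC_021021, with 3.22 and 1.29. XLOC_009538 (29.1 and 1.33), XLOC_035930 (14.6 and 1.39) and XLOC_004561 (23.0 and 1.52) came next. Below both limits the highest WT value was 0.0395, at XLOC_033626.

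Most of these loci were very short. Alone at their listed locus, with no overlapping feature, were 194 of the 227 (85.5%), and their span was 200 to 52174 bp with a median of 228.5 bp. Of the 194, 172 (88.7%) spanned less than 300 bp. Over all 227 the median was 237 bp and 75.8% were below 300 bp, against 622 bp and 6.59% for the UUO-only loci and 702 bp and 19.6% for the loci above 1 in both. Span entered neither limit directly, but FPKM is divided by a length that depends on it.

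Among all assembled loci alone at their locus, the WT-only share depended on span. Of 336 loci spanning 200 to under 250 bp, 137 (40.8%) were WT-only and 129 (38.4%) UUO-only. From 250 to under 300 bp the WT-only share was 12.2% of 288 loci, from 300 to under 500 bp 0.70% of 1428, and from 500 to under 1000 bp 0.039% of 2535, a single locus. That locus was XLOC_036484, of 579 bp, which lay beside the gene Sytl5. At 1000 bp or more 11 of 489 (2.25%) were WT-only.

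**Figure D1:**
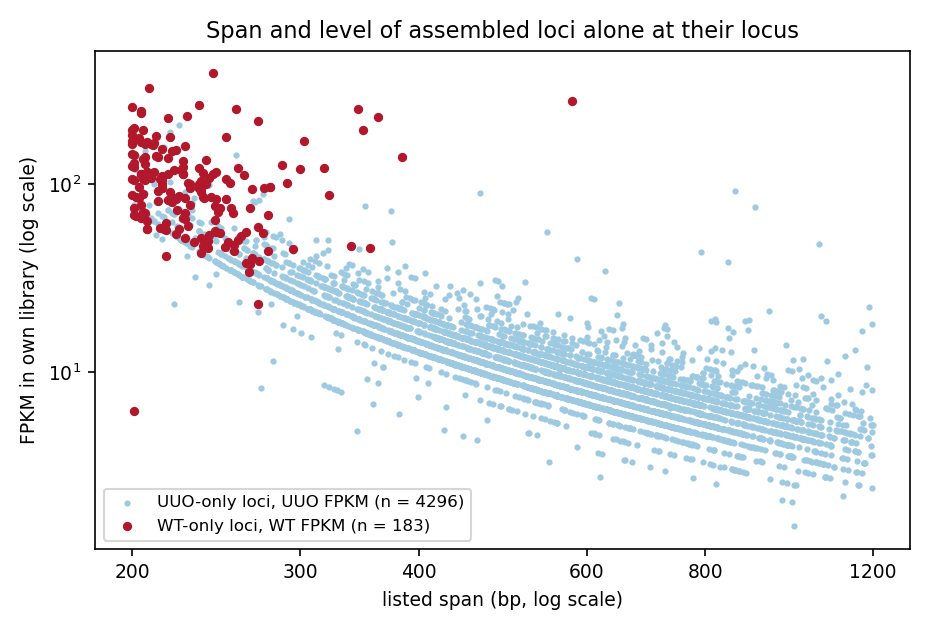
Listed span in bp (x axis, log scale) against FPKM in the library where the locus was detected (y axis, log scale) for assembled loci of up to 1200 bp that are alone at their locus, with 183 WT-only loci in red (WT FPKM) and 4296 UUO-only loci in blue (UUO FPKM). The red points crowd below 300 bp, and the bands of blue points are whole numbers of fragments.

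The table holds no read counts, but the FPKM values of lone loci fell on steps, each the worth of 1 fragment at that span. With a length offset of 128 bp in WT and 176 bp in UUO, 93.5% of 186 WT and 99.3% of 3530 UUO values of 400 to 1200 bp came within 0.1 of a whole number. For shorter spans a truncated normal fragment length was fitted, chosen after seeing the data, with a mean of 126 bp in WT, 172 bp in UUO and an SD of 34 bp in both. Under it the WT values of 180 of the 183 lone WT-only loci up to 1200 bp (98.4%) were whole within 0.1, against 30 under the linear offset. The linear offset had been fitted at 400 to 1200 bp. The truncated normal was chosen to maximise this share over 406 WT values of 200 to 600 bp, these loci among them. Over the 406 it was 88.7%, so the 98.4% is no independent check. The fragment numbers given below come from the truncated normal fit.

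The 183 loci held 1 to 262 WT fragments, with a median of 20.02 and quartiles of 14.0 and 28.0. Of these, 146 had 10 to 30 fragments, 34 had more and 3 had 9 or fewer. The lowest was XLOC_022564, whose FPKM of 6.21 was 1 fragment over 201 bp. The UUO-only loci held a median of 9 UUO fragments (n = 4296), and the loci above 1 in both held 25.9 WT and 11.9 UUO fragments (n = 344). The WT-only loci therefore had more fragments behind each value than the UUO-only loci although the median span of all lone loci was 228.5 bp in the first and 576 bp in the second.

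**Figure D2:**
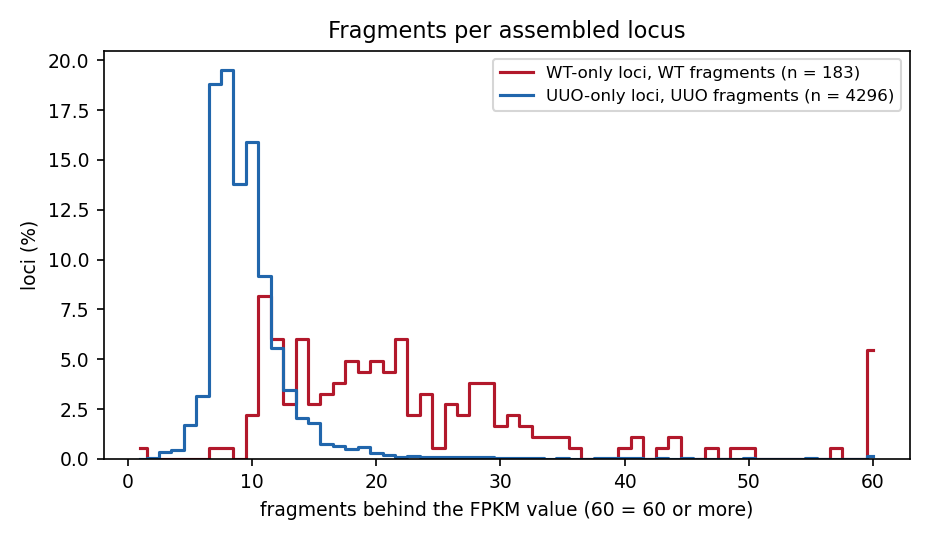
Share of loci in percent (y axis) by the number of fragments behind the FPKM value (x axis, with 60 standing for 60 or more) for 183 WT-only loci in WT urine (red) and 4296 UUO-only loci in UUO urine (blue). The UUO-only loci peak near their median of 9 fragments, and the WT-only loci spread around a median of 20.02.

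At these spans a UUO value below 1 means less than 1 fragment. A single UUO fragment would have given 1.02 to 10.2 FPKM at the spans of the 183 loci, with a median of 6.96. At 250 bp 1 fragment was worth 3.83 FPKM in WT and 5.21 in UUO urine, and at 1000 bp 0.542 and 0.497. The part of the shorter WT fragments in the detection of 200 to 300 bp loci was not tested.

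The highest FPKM belonged to XLOC_020050 (chr2:214238663-214241965, WT 1260, UUO listed at 0). It shared its locus with 6 other features and carried the reference name of a noncoding transcript, and the 7 together summed to 1262 in WT and 1.14 in UUO urine. Nearly all of the locus's WT value thus stood under this 1 name. Next came 2 short lone loci. XLOC_004848 (chr10:9233379-9233622) had a WT FPKM of 390 from 96 fragments, and XLOC_009252 (chr12:17345954-17346162) 326 from 57 fragments. They lay 66606 bp from Eef2kmt, a protein lysine methyltransferase gene, and 543925 bp from Gna12, a G protein alpha subunit gene. Eef2kmt was tied with another number-only gene. Of the other high loci, XLOC_027752 had 265 (61 fragments, 10815 bp from Mcmdc2), XLOC_026044 258 (41 fragments, 10192 bp from Bola3) and XLOC_010515 251 (69 fragments, 31072 bp from Nr5a2). The gene values in WT and UUO urine were 3.36 and 2.76 for Eef2kmt, 118 and 56.8 for Gna12, 2.45 and 4.77 for Bola3. Mcmdc2 was at 0 and 0.228, and Nr5a2 at 0 in both. High WT-only loci thus stood beside both detected and undetected genes.

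The longest listed spans were 276548 bp (XLOC_012116), 113672 bp (XLOC_011791), 52174 bp (XLOC_031546), 39818 bp (XLOC_007694) and 36178 bp (XLOC_017801). Only XLOC_031546 was alone there, with a WT FPKM of 256. For the other 4 the span is that of the merged region. The 33 WT-only loci at shared regions had a median WT FPKM of 55.2, and 23 carried a NONRAT name of a noncoding RNA database, 8 a number-only name and 2 none. Summed over the region, UUO urine reached at least 1 at 16 of them and stayed below at 17. Without the WT-only locus itself, the other features of the region summed to at least 1 in UUO urine at 13.

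A listed region was shared with a number-only gene ID by 10 WT-only loci. XLOC_017801 had a WT FPKM of 259 in the region of Trim67, a ubiquitin ligase gene listed at 0 in both libraries. XLOC_003264 had 166 in that of Hsd17b14, a steroid dehydrogenase gene, and XLOC_000532 had 105 in that of Npas1, a transcription factor gene, both likewise at 0 in both. XLOC_022112 had 72.2 in the region of Rag1, the antigen receptor recombinase, which was at 0 in WT and 0.0643 in UUO urine. XLOC_035529 had 58.3 in the region of Hjurp, a centromere chaperone, at 0 and 0.0872. At these 5 regions the WT value stood under the assembled name and not under the separate entry of the gene ID. XLOC_017801, XLOC_000532, XLOC_022112 and XLOC_035529 nevertheless carried the ID of that gene as reference name. In the authors' naming they are thus not separate from the gene. XLOC_003264 carried a NONRAT name. Prss30, a serine protease gene, had 5.69 in WT and 0.283 in UUO urine beside XLOC_004918 with 162. The remaining 4 also carried the ID of the gene as reference name and had low WT values. XLOC_017477 had 9.35 by Misp3 (4.10 and 3.39), XLOC_006103 6.96 by Anapc11 (8.41 and 4.79), XLOC_014982 5.71 by Yae1 (1.57 and 3.89) and XLOC_011791 2.76 by Srp72 (0 in both). The reads of a shared region are divided among overlapping features, which makes these values uncertain.

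WT-only loci lay on all 21 listed chromosomes, 1 to 20 and X, and none on unplaced sequence, where 9 UUO-only loci lay. Chromosome 10 held 23 (10.1%), against 4.87% of the UUO-only loci and 8.31% of the number-only gene IDs. Chromosome 1 held 20 (8.81%, against 12.4% and 13.6%), chromosome 12 held 12 (5.29%, against 2.96% and 2.93%) and chromosome X held 8 (3.52%, against 1.25% and 3.22%). Chromosome 2 held 20 as well (8.81%, against 8.93% and 6.16%). The share of WT-only loci was nearer to that of the genes on 7 chromosomes, 10 and X among them, and nearer to that of the UUO-only loci on 14, among them 1 and 2.

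**Figure D3:**
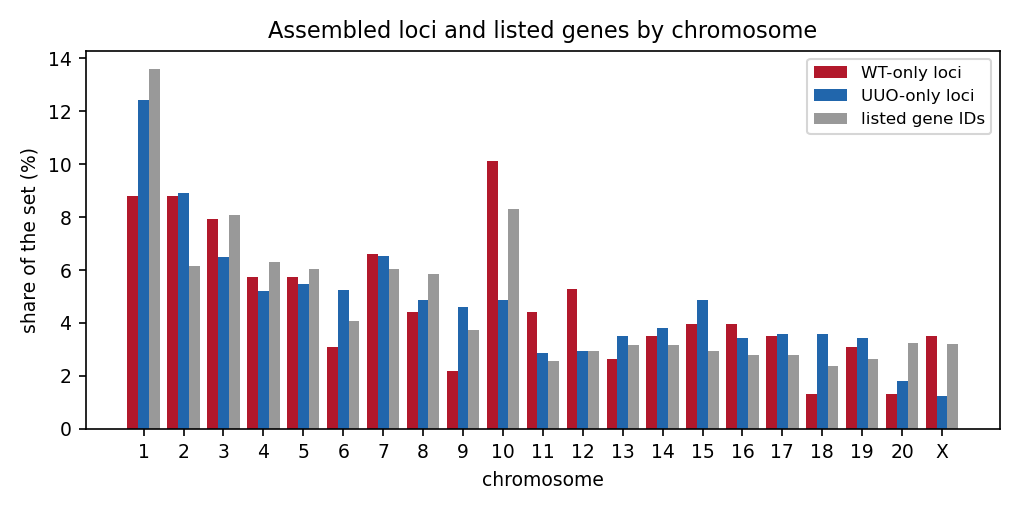
Share of each set in percent (y axis) on each chromosome (x axis) for WT-only loci (red), UUO-only loci (blue) and number-only gene IDs (grey). Chromosome 10 holds 10.1% of the WT-only loci and 4.87% of the UUO-only loci.

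Few of these loci clustered. The gap between neighbours on a chromosome was 93 bp to 76.1 Mb, with a median of 5.81 Mb over 206 pairs, and 11 gaps were under 100 kb. Joined at gaps under 100 kb, 19 loci (8.37%) formed 8 clusters, against 50.8% of UUO-only loci and 33.0% of loci above 1 in both. These shares rise with the number of loci in a class and are no measure of clustering between classes. Within 10 kb of 40 WT-only loci lay an assembled locus of another class.

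The largest cluster lay beside Sytl5, a gene of the synaptotagmin-like family of Rab27 effectors that act in vesicle transport. Sytl5 (chrX:14802670-14891273) stood at FPKM 714 in WT against 4.28 in UUO urine, 167-fold lower in UUO. XLOC_036483 (chrX:14893942-14894304) had a WT FPKM of 228 from 113 fragments, and XLOC_036484 (chrX:14894682-14895261) 277 from 262 fragments. XLOC_036485 (chrX:14896190-14896535) had 253 from 116 fragments, and XLOC_036487 (chrX:14899353-14899581) 232 from 50. All 4 were listed at 0 in UUO urine and lay 2669, 3409, 4917 and 8080 bp beyond the end coordinate of the gene. Between and before them lay 2 loci above 1 in both libraries. XLOC_036482 had 346 in WT and 7.72 in UUO urine (111 and 2 fragments), and XLOC_036486 had 125 and 2.27 (60 and 1 fragments). The run of 6 loci covered 5975 bp, and in all 6 UUO urine held 0 to 2 fragments. What set the 2 classes apart in this run was thus 1 or 2 UUO fragments.

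**Figure D4:**
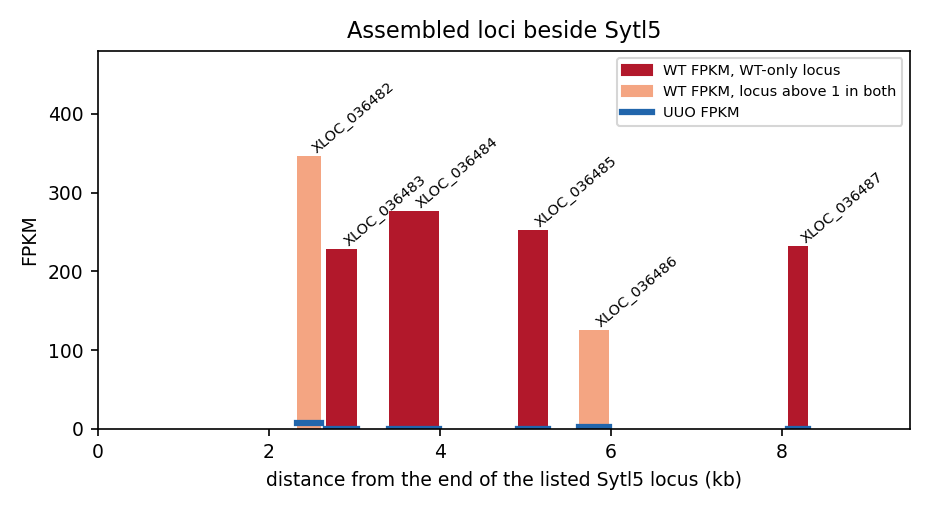
FPKM (y axis) of the 6 assembled loci beside Sytl5 against distance in kb from the end of the listed gene locus (x axis), with bars for WT urine (red, WT-only; light, above 1 in both) and blue lines for UUO urine. WT values are 125 to 346, and the UUO lines lie at 0 for the 4 WT-only loci and at 7.72 and 2.27 for the others.

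The second cluster held 3 loci on chromosome 10, 50879 to 59158 bp from Plekhm1, a gene of lysosome traffic with 28.4 in WT against 7.66 in UUO urine. XLOC_007257 (WT FPKM 170, 63 fragments) and XLOC_007258 (195, 91 fragments) were 93 bp apart, the smallest gap, and XLOC_007259 (28.8) followed after 7534 bp. The other 6 clusters were pairs. Besides those at Mir183 and Prss30, where XLOC_004919 (96.6) followed XLOC_004918 after 648 bp, XLOC_009541 (91.7) and XLOC_009544 (202) had Trafd1 and Ptpn11 as nearest genes. The distances were 50387 and 76846 bp. XLOC_013480 (101) and XLOC_012709 (143) were nearest to Pcdh20, a protocadherin gene at 0 in both libraries, 67285 and 44659 bp away. XLOC_016748 (145) and XLOC_016314 (55.6) were nearest to the urea transporter gene Slc14a2, with 0 and 0.306. They lay 265805 and 279760 bp from it, beyond the 100 kb window. XLOC_024306 (46.6) and XLOC_022877 (103) were nearest to Gata5, 38695 and 49204 bp away. Gata5, a transcription factor gene, had 6.51 in WT urine and was listed at 0 in UUO. XLOC_022877 shared its region with another feature, and the region summed to 111 in WT and 19.0 in UUO urine.

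A listed gene lay near most of the loci. Of the 227, 10 (4.41%) shared its region, 64 (28.2%) lay under 10 kb away, 80 (35.2%) at 10 to 100 kb and 73 (32.2%) at 100 kb or more. Within 100 kb were 67.8%, against 50.02% of UUO-only loci and 81.8% of loci above 1 in both, and the median distance was 38455, 99792 and 22169 bp. Within 10 kb were 32.6%, 14.1% and 36.4%. By distance the WT-only loci thus stood nearer to the loci detected in both than to the UUO-only loci.

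The nearest gene had an FPKM of at least 1 in WT urine for 129 loci (56.8%) and in UUO urine for 145 (63.9%). Over all 16484 number-only IDs these shares were 47.3% and 56.3%, so the neighbours were above that background by a similar margin in both libraries. The 227 loci had 215 distinct nearest genes, of which 208 were protein coding and 42 were at 0 in both libraries. Among the 151 with an FPKM of at least 1 in either library, 60 (39.7%) were lower in UUO urine by 1 or more in log2(FPKM + 1) and 33 (21.9%) were higher, with a median difference, UUO minus WT, of −0.63. Over all 9853 such gene IDs, 36.5% were lower, 25.7% were higher and the median was −0.51. The neighbours as a whole were thus close to the background.

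Under 10 kb from a locus, outside its region, lay 59 distinct genes, 49 of them at FPKM 1 or more in at least 1 library. Of the 49, 24 (49.0%) were lower and 11 (22.4%) higher in UUO urine, with a median log2 difference of −0.996. At 10 to 100 kb 42.1% of 57 were lower and 19.3% higher (median −0.63), and at 100 kb or more 26.8% of 41 were lower and 26.8% higher (median −0.50). Under 10 kb from UUO-only loci 34.9% of 378 were lower and 25.4% higher (median −0.48), and from loci above 1 in both 37.2% of 137 were lower and 18.2% higher (median −0.65). The split near WT-only loci depended on scaling. With UUO values raised to equal summed FPKM it was 18 lower and 15 higher, by the median ratio of features detected in both libraries 16 and 16, and at an equal 75th percentile, which shrinks UUO values, 38 and 0.

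**Figure D5:**
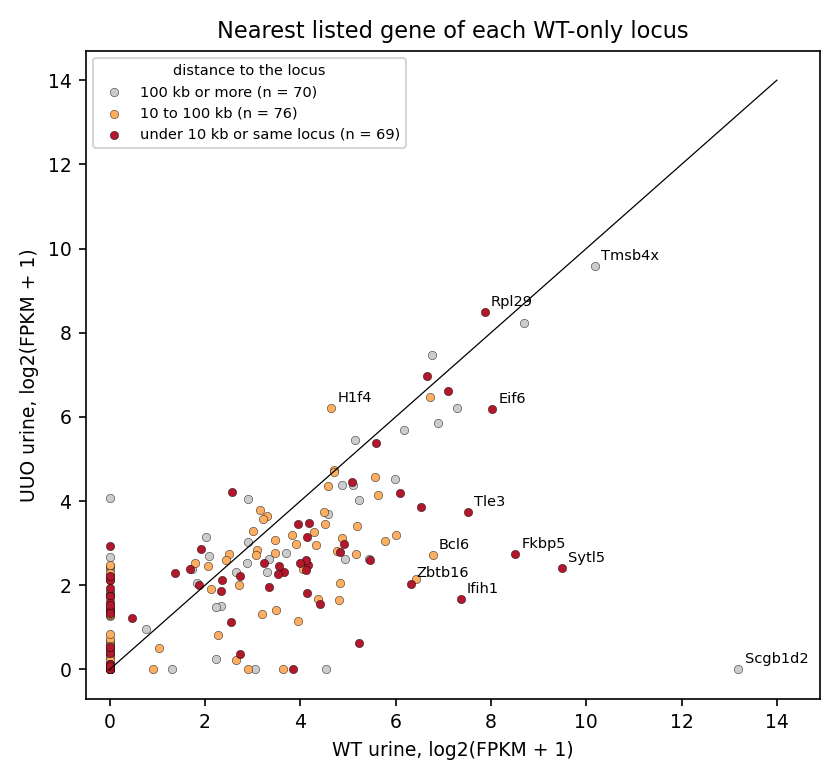
log2(FPKM + 1) in WT urine (x axis) and UUO urine (y axis) of the 215 distinct genes nearest to WT-only loci, coloured by distance, with the line of equal values. Sytl5, Fkbp5, Ifih1, Tle3 and Zbtb16, all under 10 kb from a locus, lie far below the line, and Rpl29 above it.

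Of the 10 nearest genes with the highest WT FPKM, 6 lay under 10 kb from a WT-only locus. Beside Sytl5, Fkbp5, a co-chaperone of steroid hormone receptors, had 365 in WT and 5.68 in UUO urine, 64.2-fold lower in UUO. It lay 8001 bp from XLOC_021156 (chr20:10270059-10296026, WT FPKM 151), which shared its region with other features. Ifih1, the cytoplasmic sensor of double-stranded RNA, had 164 and 2.19, 74.6-fold lower in UUO, and lay 574 bp from XLOC_021817 (chr3:55270155-55270368, WT FPKM 141, 26 fragments). Tle3, a Groucho-type corepressor, had 181 and 12.3, 14.7-fold lower in UUO, and lay 282 bp from XLOC_034409 (chr8:66084385-66084597, WT FPKM 180, 33 fragments). These 4 differences exceeded each of the scalings by equal sums (1.54) and by median ratio (1.80). Eif6, a factor of ribosome assembly, had 259 and 71.3 at 3388 bp from XLOC_024067 (47.0, 21 fragments). Rpl29, a ribosomal protein gene with near-identical copies, had 233 and 360 at 7709 bp from XLOC_034715 (94.9, 22 fragments). On the deposited scale a WT-only locus could thus stand beside a gene that was higher in UUO urine.

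The other 4 of the 10 lay more than 100 kb away. Scgb1d2, a secretoglobin gene and the only gene of the cell type lists nearest to a WT-only locus, had 9354 in WT urine and was listed at 0 in UUO. It lay 134385 bp from XLOC_004394 (chr1:232408642-232409870, WT FPKM 152). This gene stood on the male accessory gland list given above, and made up most of its WT sum. Tmsb4x, the actin-binding thymosin beta 4, had 1156 and 769 at 365277 bp from XLOC_036582 (136, 23 fragments). Aadat, an aminotransferase gene of kynurenine and lysine breakdown, had 415 and 299 at 195281 bp from XLOC_014323 (70.2, 12 fragments). Srsf5, a splicing factor gene, had 156 and 72.8 at 115577 bp from XLOC_029391 (95.2, 18 fragments).

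Ranked by UUO FPKM, Tmsb4x, Rpl29, Aadat, Srsf5 and Eif6 appeared again among the first 10 neighbours. The transcription factor gene Foxq1 had 107 in WT and 177 in UUO urine, 128677 bp from XLOC_014904 (162). The linker histone gene H1f4, one of a family of near-identical copies, had 24.0 and 72.7, 10578 bp from XLOC_015548 (123), tied with another gene. Tsc22d1, a leucine zipper gene, had 136 and 96.7, and lay 477 bp from XLOC_013288 (96.6, 31 fragments). Sptbn1, a spectrin gene, had 105 and 87.1 at 24766 bp from XLOC_012195. Rpl22 had 100 and 125 at 158 bp from XLOC_025034 (96.5), tied with another gene. All 10 were above 50 FPKM in UUO urine, and the WT-only locus nearest to each, 158 to 365277 bp away, was at 0. The ranking by UUO FPKM and the UUO limit of the loci set this contrast.

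Further genes under 10 kb are named here after their values were seen. Zbtb16, a zinc finger transcription factor gene, had 78.5 in WT and 3.11 in UUO urine at 3656 bp from XLOC_034242 (140, 76 fragments). Tfap2a, the transcription factor AP-2 alpha, had 36.6 and 0.536 at 964 bp from XLOC_014851 (225, 44 fragments). Esr2, oestrogen receptor beta, had 13.4 and was listed at 0 in UUO, 2651 bp from XLOC_030197 (45.8, 22 fragments). Tfap2a and Esr2 were thus themselves above 1 in WT urine alone. Cavin1, a caveola gene, had 92.0 and 13.6 at 9381 bp from XLOC_005819 (86.0). Irx5, a homeobox gene, had 16.6 and 2.51 at 361 bp from XLOC_016894 (83.6). In the other direction, Elovl1, a fatty acid elongase gene, had 4.88 in WT and 17.5 in UUO urine at 1403 bp from XLOC_027276 (43.9, 14 fragments). Ptar1, a prenyltransferase gene, was listed at 0 in WT and had 6.63 in UUO urine, 2297 bp from XLOC_002063 (151, 30 fragments). Kcnmb4, a potassium channel subunit gene, was at 0 and 3.62, 4579 bp from XLOC_031026 (63.6, 11 fragments). On the deposited scale the gene and the assembled locus beside it differed in opposite directions at these 3 loci. Elovl1 shared its listed region with other features, and summed over the region the values were 15.4 in WT and 19.8 in UUO urine. The same sums were 0 and 7.16 for Ptar1, and 0 and 4.82 for Kcnmb4. The limits set the direction of the locus, and these genes were picked as higher in UUO urine. At an equal 75th percentile 0 nearest genes under 10 kb were higher in UUO by 1 or more in log2(FPKM + 1).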

How the data were processed

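Total RNA of rat urine was sequenced in 2 libraries. The submitters' processing notes name Bowtie2 2.0.6, TopHat2 2.0.9, Cufflinks 2.1.1, Cuffdiff 2.1.1 and the genome build rn5. The authors deposited 1 FPKM value per feature and library, and the total behind the scaling is not stated. Their columns of log2 fold changes, test statistics, p-values and q-values were not used, and 0 columns of other samples were present. The status column was used only as a mark, and read OK for 224 and NOTEST for 3 WT-only loci.

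The loci and gene lists were chosen with earlier results of these data known. Coordinates are as listed, a span is end minus start, and a region merges overlapping features, so that a distance is a minimum. The nearest gene was the nearest number-only ID on the same chromosome, and ties (16 loci) went to the lowest number. Symbols came from RefSeq GRCr8 and matched 214 of 215 nearest genes. None of its coordinates were used. Changes were differences of log2(FPKM + 1), which understate those of low features. With 1 library per group no test was made. The text of the paper gives the reads of each sample only as an order of magnitude. The FPKM steps gave normalising totals of 2116000 fragments (WT) and 2444000 fragments (UUO) with the linear offset. With the truncated normal they were 2088520 and 2402680. These totals need not equal the depth.

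Named loci were the 10 highest in WT FPKM, the 5 longest, those of the largest clusters, those sharing a gene's region, those above 0 in UUO and those beside the limits. Named genes were the 10 neighbours highest in WT and in UUO FPKM and any on a cell type list. Others were named after their values were seen. Tools were Python 3.11.15, pandas 2.3.3, numpy 2.4.6, scipy 1.17.1 and matplotlib 3.10.9.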

Additional observations from a re-analysis of the deposited data

How the results depend on the processing

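No paired analysis was possible because there was 1 library on either side, which also leaves no library to leave out. Of 51 alternatives over 11 results, 30 stayed close to the value given in the report, 21 moved and 0 turned its direction. Only the medians of log2 differences have a sign that could turn, so the last number is no sign of stability. The 24 lower and 11 higher genes under 10 kb became 16 and 16 by median ratio, which still counted as close.

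The number of WT-only loci was 223 at a limit of 0.5, 265 at 5, 219 with UUO at exactly 0 and 211 with UUO summed over the region. It was 402 with UUO scaled to an equal 75th percentile, a factor of 0.105, and, by construction, 55 at spans of at least 300 bp and 45 at 500 bp or more. The share with a gene in the window was 32.6% at 10 kb, 96.5% at 1000 kb and 4.41% for overlap alone. The share whose nearest gene was detected in WT urine was 69.6% among IDs above 0 in either library, and 46.7% at a limit of 5.

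Over all nearest genes the median log2 difference was 0, because many genes were at 0 in both libraries. It was −1.51 at an equal 75th percentile and −0.63 over genes with an FPKM of at least 1. Settings for the genes under 10 kb were chosen after seeing the data. Their median of −0.996 was −0.43 at equal sums, −0.22 by median ratio, −3.13 at an equal 75th percentile, −0.49 with a pseudocount of 10, −0.71 summed over regions and −0.85 without Sytl5. At an equal 75th percentile 38 were lower and 0 higher. Members of clusters numbered 11, 38 and 53 at gaps under 10, 500 and 1000 kb. Leaving out tied genes, also chosen after seeing the data, gave a window share of 67.3%. The median number of WT fragments was 19.7 with the linear offset.

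Depth limits values of few fragments, and 1 library per group limits all of them.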
